A study of Mus musculus with 12 samples.

Results

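Testes of younger mice, aged 3 and 6 months (3M and 6M), were compared with testes of older mice, aged 12 and 18 months (12M and 18M), by total RNA sequencing. The comparison took all 12 of the 12 libraries of the series, with 6 on each side, and the sides were set by the age label alone. All mice were wild-type males of the inbred strain C57BL/6, with 3 mice at each age, 1 library per mouse and no treatment in any group, so that the groups differed by age. The sources used here do not say whether the mice of an age shared a litter. Each side pools 2 ages, and the p-values below measure the spread between single mice, including any difference between the ages of one side.

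Most cells of the adult testis are germ cells, which pass through mitosis and meiosis and are reshaped into sperm inside the seminiferous tubules. Sertoli cells nurse them there, while the interstitium between the tubules holds Leydig cells, blood vessels, macrophages and fibroblast-like stromal cells. Leydig cells make testosterone. Luteinizing hormone acts on its receptor Lhcgr, cholesterol is brought into mitochondria with the help of Star, Cyp11a1 cuts off its side chain, and enzymes that include Hsd3b6, Cyp17a1 and Hsd17b3 turn the product into testosterone. In some strains of ageing rodents, testosterone output by Leydig cells is known to decline.

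The genes that fell in older testis included kallikreins, a cluster of secreted serine proteases of which several members are known from Leydig cells, and genes of steroid synthesis. Promoters of both sets were therefore read from RefSeq (GRCm38.p6, the assembly behind mm10) as windows from 250 bases before to 50 bases after a start. An entry was found for all 14 Klk1 genes and for 3 of 4 steroid genes looked up, with none for Cyp17a1. Searched on both strands were CAAGGTCA, the letters that the Leydig and Sertoli cell factor SF-1 (gene Nr5a1) is known to bind, a looser form CAAGGNCA that includes it, the shorter AGGTCA, whose letters overlap both, the cyclic AMP response element TGACGTCA and its shorter form TGACG. Of all 32851 promoters in the table, 1.56% held CAAGGTCA, 6.71% CAAGGNCA, 16.3% AGGTCA, 1.79% TGACGTCA and 20.8% TGACG.

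To show how alike the kallikrein promoters are, stretches of 110 bases that end in the same letters are given for the 5 genes that fell and for 3 neighbours that did not pass the test, with CAAGGNCA in capitals.
Klk1b21, chr7:44102220-44102329, plus strand: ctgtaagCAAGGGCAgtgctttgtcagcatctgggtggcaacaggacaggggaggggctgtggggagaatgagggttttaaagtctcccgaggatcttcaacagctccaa
Klk1b24, chr7:44188129-44188238, plus strand: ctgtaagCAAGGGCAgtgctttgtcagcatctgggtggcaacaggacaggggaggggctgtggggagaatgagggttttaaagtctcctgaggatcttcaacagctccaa
Klk1b27, chr7:44052197-44052306, plus strand: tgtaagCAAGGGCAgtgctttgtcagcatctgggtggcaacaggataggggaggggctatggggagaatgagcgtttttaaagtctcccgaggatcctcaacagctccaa
Klk1b16, chr7:44137175-44137284, plus strand: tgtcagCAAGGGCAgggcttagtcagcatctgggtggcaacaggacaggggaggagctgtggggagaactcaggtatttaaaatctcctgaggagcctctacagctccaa
Klk1b22, chr7:44112558-44112667, plus strand: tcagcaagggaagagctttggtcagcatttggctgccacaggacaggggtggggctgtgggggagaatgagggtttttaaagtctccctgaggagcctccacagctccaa
Klk1b8, chr7:43950547-43950656, plus strand: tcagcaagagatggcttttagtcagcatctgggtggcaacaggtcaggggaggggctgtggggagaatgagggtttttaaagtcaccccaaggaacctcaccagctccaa
Klk1b9, chr7:43975953-43976062, plus strand: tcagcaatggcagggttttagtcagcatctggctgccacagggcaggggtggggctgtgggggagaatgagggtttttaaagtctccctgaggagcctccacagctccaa
Klk1b3, chr7:44198103-44198212, plus strand: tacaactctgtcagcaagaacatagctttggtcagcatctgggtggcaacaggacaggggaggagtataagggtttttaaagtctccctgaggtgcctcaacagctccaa
The stretches of Klk1b21 and Klk1b24 were identical at 99.1% of their aligned positions, and Klk1b27 shared 94.6% with Klk1b21 and 93.7% with Klk1b24. Klk1b22 fell as well, but its stretch was closest to that of Klk1b9, which did not pass the test, at 93.6% identity, against 84.2% with Klk1b21. CAAGGNCA was present in the promoters of 4 of the 5 genes that fell and in 1 of the 7 that were tested and not called, which was Klk1, and in both genes that were not tested. AGGTCA was in 4 of the 5 and 6 of the 7, CAAGGTCA was in 1 of the 5 and 1 of the 7, and TGACG and TGACGTCA were in none of the 14. The motifs were compared after the calls were seen, so these counts are descriptions. The genes not called include Klk1b8, of which the paper lists a transcript as decreased. A match of letters is a description and not a binding site. The genes of this cluster are near-identical copies, so that reads can be shared among them and the level of each single member is uncertain.

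Among the steroid genes, the second start of Cyp11a1 held AGGTCA 28 bases before it and the promoter of Lhcgr held 1 copy as well, in capitals in the windows below. The first start of Cyp11a1 held only the short form TGACG, as its complement CGTCA, and the window of Hsd17b3 held none of the 5.
Cyp11a1, chr9:58014702-58015001, plus strand: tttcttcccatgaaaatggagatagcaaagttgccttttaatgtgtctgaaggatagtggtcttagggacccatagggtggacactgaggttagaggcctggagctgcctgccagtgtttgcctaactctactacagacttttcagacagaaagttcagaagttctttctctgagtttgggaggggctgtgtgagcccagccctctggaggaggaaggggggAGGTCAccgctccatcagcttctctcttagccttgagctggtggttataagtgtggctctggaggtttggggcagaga
Lhcgr, chr17:88791965-88792264, minus strand: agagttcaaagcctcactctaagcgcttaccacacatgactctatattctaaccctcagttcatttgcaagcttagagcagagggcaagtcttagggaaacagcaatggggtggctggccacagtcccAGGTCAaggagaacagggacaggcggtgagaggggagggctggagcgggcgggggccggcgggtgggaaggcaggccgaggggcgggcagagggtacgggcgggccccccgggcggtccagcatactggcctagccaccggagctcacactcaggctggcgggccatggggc
Cyp11a1, Lhcgr and Hsd17b3 had no CAAGGTCA in a window of this length.

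Each library held between 48052885 and 68057885 estimated reads in genes, with a median of 51405112 for the younger and 54838058 for the older side. Transcripts that the authors' assembly matched to a known gene, by the class codes =, c, j and o, held 94.3% to 95.0% of all reads, and their reads were summed per gene. Levels are given as normalised read counts scaled to the size of a library (CPM), and differences as log2 of older over younger with their standard error (SE). The Pearson correlation of log2 levels across genes was 0.984 to 0.988 within the younger side and 0.983 to 0.988 within the older side, so no library stood apart by that measure. Between the sides it was 0.980 to 0.988, so the measure hardly separates libraries. The tissue label held up against its markers: the summed level of 13 protamine, transition protein and spermatid histone genes was 14061 to 21033 CPM in every library. In the epididymis and rete list, 8 of 11 markers were too low to be tested, and Lcn5 had no read in any library. The 3 tested held 0 calls and included Ros1, a receptor kinase (-0.40, edgeR, adjusted p = 0.326).

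Among the genes that differed between younger and older testis, more fell than rose. Of 18010 genes tested, 196 (1.09%) were called at an adjusted p of 0.05 or less by edgeR's quasi-likelihood test with Benjamini-Hochberg adjustment. Of these, 141 (0.783% of the genes tested) were lower and 55 (0.305%) were higher in older testis. The test of DESeq2 called 991 genes, 555 lower and 436 higher, so the number and the balance of directions depend on the test. The falls were also deeper, with a median log2 difference of -0.56, against 0.27 for the rises and -0.01 for all genes tested. Called falls had a median level of 7.36 CPM and called rises 27.6 CPM, and the part of level in this contrast was not tested. The difference reached 1 or more in size in 17 genes that fell and 6 that rose, and it was under 0.5 in 99 of the 196. All 6 younger libraries lay on one side of all 6 older libraries in 167 of the 196 called genes (85.2%), against 438 of all genes tested (2.43%), of which 194 (1.08%) were higher and 244 (1.35%) lower. The called genes were selected by this same contrast, so their high share is largely given in advance.

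**Figure D1:**
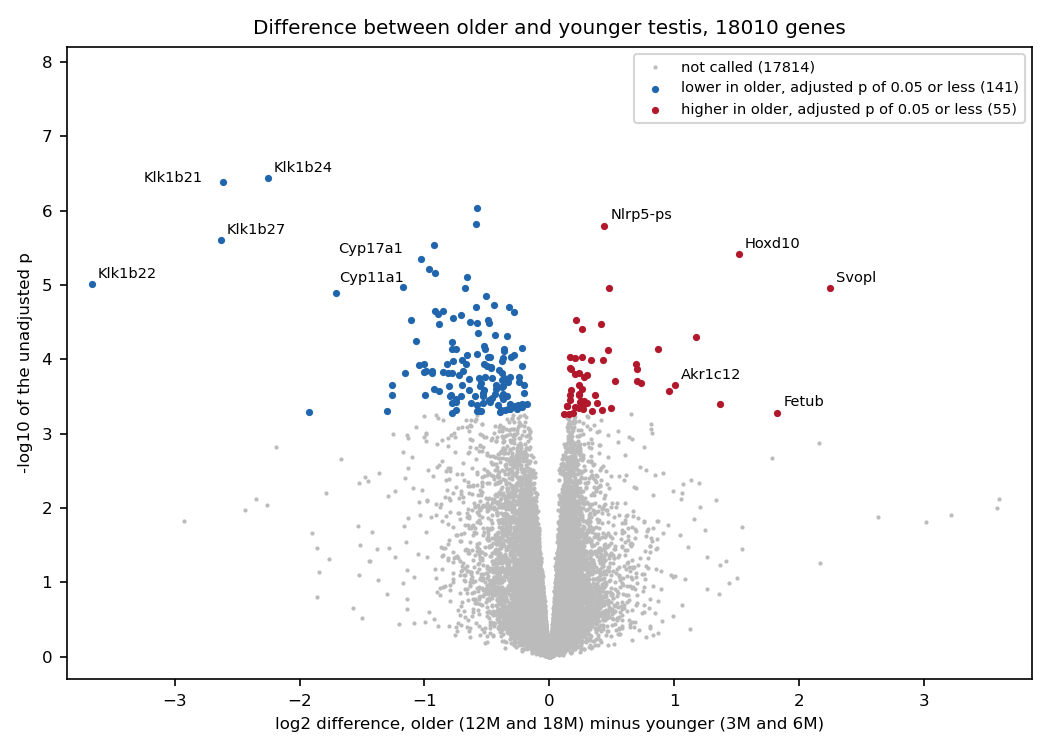
Each of the 18010 tested genes is a point, with the log2 difference of older minus younger testis on the x axis and the unadjusted p of edgeR's quasi-likelihood test, as -log10, on the y axis; called genes are coloured by direction. The kallikreins Klk1b22, Klk1b27, Klk1b21 and Klk1b24 lie far to the left at -3.67 to -2.26, and most called genes lie within 1 log2 unit of 0.

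How many genes passed depended on single mice. Leaving out 1 library at a time gave between 36 calls, without 18M replicate 3, and 472, without 12M replicate 2. The count also fell by more than 1.5 times without 3M replicate 1 (78), 3M replicate 2 (80), 3M replicate 3 (90), 6M replicate 1 (117), 6M replicate 2 (48), 6M replicate 3 (108), 12M replicate 1 (81), 12M replicate 3 (53) and 18M replicate 2 (43), and it rose to 322 without 18M replicate 1. All 196 genes kept their sign in each of these 12 fits. The fits reuse most of the libraries in which the genes were selected, so a kept sign is largely given in advance. Of the 196, 31 (0.172% of the genes tested) were called in all 12 fits. When only transcripts identical to a known one (class =) were summed, 0 genes passed edgeR's quasi-likelihood test with adjustment and 2544 had an unadjusted p of 0.05 or less, with the same sign in 180 of the 189 called genes that could be tested.

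**Figure D2:**
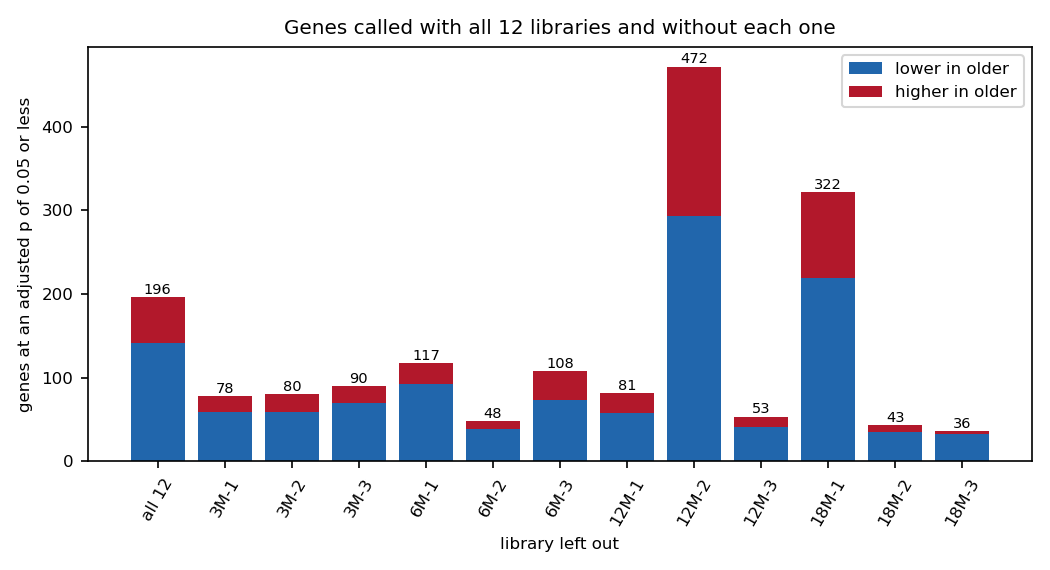
Bars start at 0 and give the number of genes called higher or lower in older testis, in the comparison of all 12 libraries and after each library was left out in turn. The 12 counts run from 36 to 472 around the 196 of the full comparison.

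Leydig cell genes were among those that fell. Of 14 Leydig cell markers tested, 5 were called lower and 0 higher, against 0.783% called lower among all genes. This list and the others were chosen with earlier results of these data known, so their counts are descriptions. The paper had already listed Cyp11a1 and Cyp17a1 as decreased between 3M and 18M in the same libraries. Of the genes described below, it also listed Klk1b21, Klk1b22, Klk1b24, Klk1b27, Klk1b8, Aqp2 and Ephx1 as decreased. Hoxd10, Fetub and Akr1c12 were listed there as increased. Of the 14, 12 had a difference below 0, and their median was -0.52 against -0.01 for all genes. The summed level of the 14 was 1057 to 1627 CPM in the younger and 807 to 1011 CPM in the older libraries, and the sides did not overlap. In tissue RNA, fewer Leydig cells and less of these transcripts in each cell cannot be told apart. The highest sum was in 6M replicate 3, where the sum of the Sertoli cell markers was the highest as well, at 2150 CPM against 1664 to 1766 CPM in the other libraries; the part of that library in the result was not tested beyond leaving it out. Without it 3 Leydig markers were called, as was the case without 3M replicate 2, 6M replicate 2 or 18M replicate 2, and the most called in any of the 12 fits was 6.

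Cyp11a1, the side-chain cleavage enzyme that starts steroid synthesis, lay at 54.8 to 86.7 CPM (median 63.8) in younger and at 17.5 to 36.0 CPM (median 34.0) in older testis. The sides did not overlap, and the mean fell at each age from 71.2 CPM at 3M over 62.2 and 34.7 to 24.6 CPM at 18M. The log2 difference was -1.17 ± 0.17 (SE, edgeR's quasi-likelihood test, adjusted p = 0.0117), and it was called in all 12 fits that left out a library. Cyp17a1, which makes the androgen precursors, went from 128 to 197 CPM (median 138) to 54.5 to 88.8 CPM (median 74.4), again without overlap. Its log2 difference was -1.03 ± 0.14 (SE, edgeR, adjusted p = 0.00898). The 197 CPM belonged to 3M replicate 2, and without this library the difference was -0.92 with an adjusted p of 0.0143 in edgeR.

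Hsd17b3, the enzyme of the last step to testosterone, fell from a median of 15.4 CPM (13.9 to 18.4) to 9.89 CPM (6.6 to 12.7), by -0.64 ± 0.13 on the log2 scale (SE, edgeR, adjusted p = 0.0317), and the sides were apart. The receptor of luteinizing hormone, Lhcgr, fell from a median of 2.88 CPM (1.97 to 4.40) to 1.38 CPM (1.16 to 2.02), and here the highest older library lay just above the lowest younger one. Its log2 difference was -1.05 ± 0.20 (SE, edgeR, adjusted p = 0.0292). Both calls were less firm than those of Cyp11a1 and Cyp17a1. Hsd17b3 was lost without 3M-1, 3M-2, 3M-3, 6M-2, 6M-3, 12M-1 or 18M-2 and Lhcgr without 3M-2, 6M-2, 6M-3, 12M-3, 18M-2 or 18M-3, with adjusted p up to 0.0763 and 0.0753 in edgeR. Prlr, the prolactin receptor, fell from 14.7 to 19.9 CPM to 8.24 to 13 CPM, by -0.67 ± 0.10 (SE, edgeR, adjusted p = 0.0117), and was called in all 12 fits.

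The other Leydig markers did not pass the test. Insl3, the Leydig cell hormone that acts in testis descent and germ cell survival, had a mean of 645 CPM in younger and 467 CPM in older testis and a log2 difference of -0.47 ± 0.13 (SE, edgeR, adjusted p = 0.0906). Its younger values included 978 CPM in 6M replicate 3, against 517 to 619 CPM in the other 5. Star had a difference of -0.58 ± 0.16 (SE, edgeR, adjusted p = 0.0889) and Hsd3b6 one of -0.65 ± 0.17 (SE, adjusted p = 0.0718), with overlapping sides in both. Nr5a1, the gene of SF-1, was apart between the sides, at 29.8 to 41.2 CPM against 24.7 to 29.0 CPM, with a difference of -0.25 ± 0.07 (SE, edgeR, adjusted p = 0.0989). Differences near 0 were seen for Scarb1 (-0.07), which takes up cholesterol from lipoproteins, for Fdx1 (0.08), which carries electrons to Cyp11a1, and for Hsd3b1 (-0.12), whose locus overlaps that of Hsd3b6 so that their reads may be shared.

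**Figure D3:**
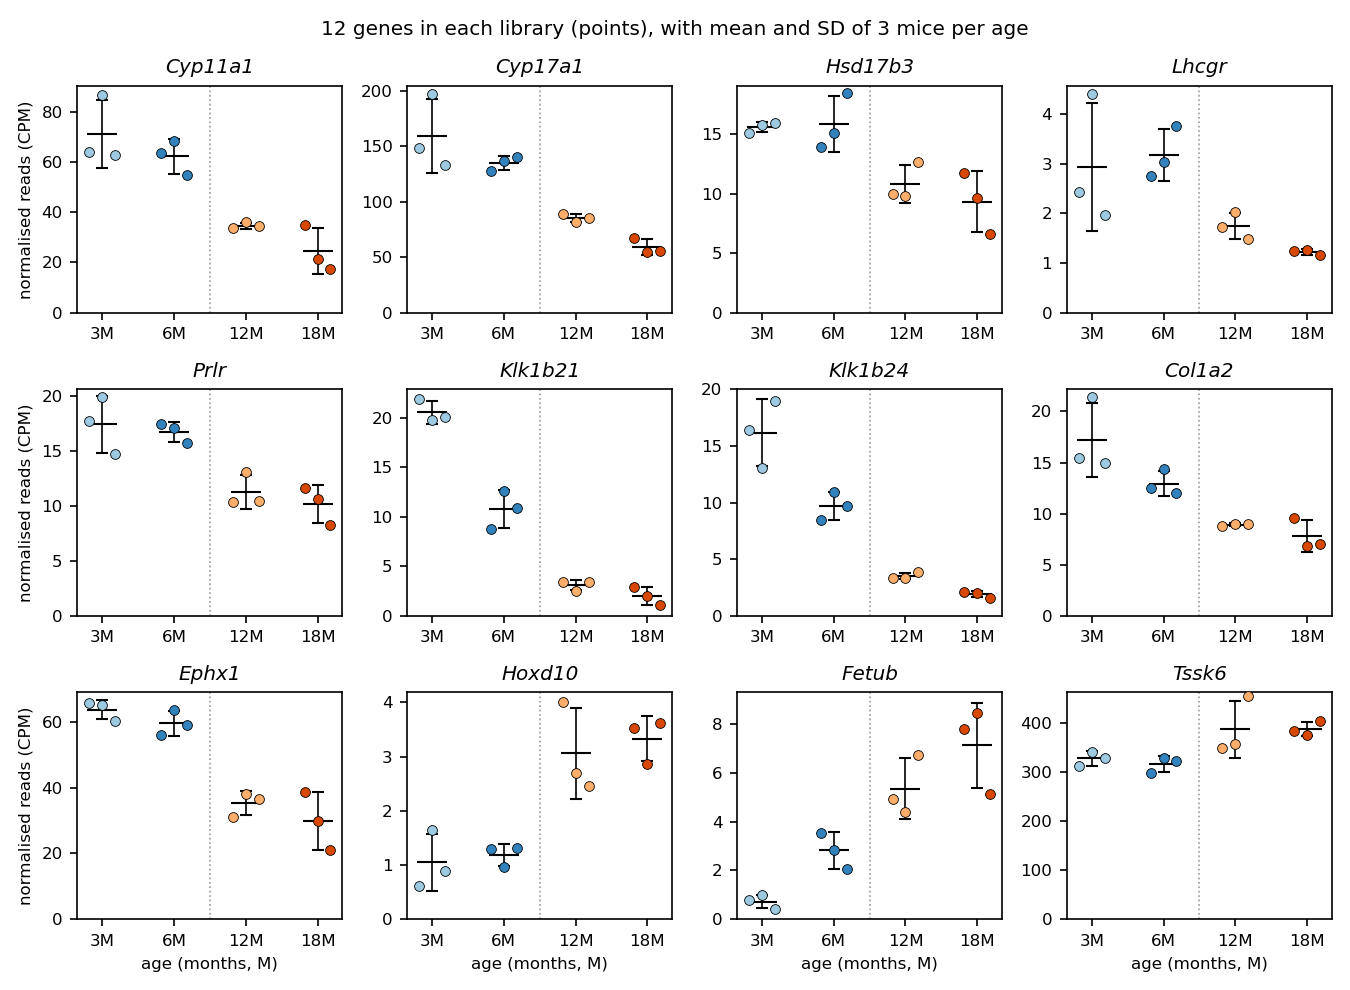
Each panel gives 1 gene, with its level in CPM in each of the 12 libraries as points, the 4 ages on the x axis the mean of 3 mice as a horizontal line, its SD as an error bar, and a dotted line between the sides. In Cyp11a1 and Cyp17a1 every older point lies below every younger point, and in Hoxd10 and Fetub every older point lies above.

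In the wider list of steroid hormone synthesis, 4 of 23 tested genes were called lower (Cyp11a1, Cyp17a1, Lhcgr and Hsd17b3) and 0 higher. The median was -0.15 and 21 of 23 lay below 0. Among all 18010 genes tested, 0.783% were called lower and 9269 lay below 0. The sides were apart in 4 genes of the list that were lower and 1 that was higher, against 1.35% and 1.08% of all genes. The summed level of the list was 597 to 761 CPM in younger and 436 to 510 CPM in older testis, with no overlap. Without 3M-2, 6M-2, 6M-3 or 18M-2, 2 genes of the list were called. The 25 tested genes of cholesterol synthesis and uptake held 0 calls, while 21 of 25 lay below 0 with a median of -0.13.

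The deepest falls were in the kallikrein cluster on chromosome 7, and in these sums per gene they were limited to some of its members. Of 12 tested Klk1 genes, 5 were called lower and 0 higher, against 0.783% called lower among all genes. The median of the 12 was 0.05, since the other 7 had differences of 0.01 to 0.33 and none was called. Klk1b21 went from 8.81 to 21.8 CPM (median 16.2) in younger to 1.10 to 3.45 CPM (median 2.70) in older testis, with means of 20.6, 10.8, 3.13 and 2 CPM from 3M to 18M. Klk1b24 went from 8.46 to 19 CPM (median 12.0) to 1.62 to 3.84 CPM (median 2.70), and Klk1b27 from 4.63 to 13.1 CPM (median 9.65) to 0.73 to 2.14 CPM (median 1.58). In all of them the sides were widely apart.

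The log2 differences were -2.61 ± 0.29 for Klk1b21 (SE, edgeR's quasi-likelihood test, adjusted p = 0.00376), -2.26 ± 0.25 for Klk1b24 (adjusted p = 0.00376) and -2.63 ± 0.34 for Klk1b27 (adjusted p = 0.00753). Klk1b22 was low throughout, with 1.23 to 5.5 CPM in younger and 0 to 0.50 CPM in older testis, and had the largest difference, -3.67 ± 0.54 (SE, edgeR, adjusted p = 0.0117). These 4 were called in all 12 fits that left out a library. Klk1b16 fell by -1.26 ± 0.25 (SE, edgeR, adjusted p = 0.0347) with overlapping sides and was called in 4 of the 12 fits. By contrast, the summed reads of Klk1b8 lay at 41.9 to 52.7 CPM in younger and 43.2 to 63.5 CPM in older testis, and those of Klk1b9 at 9.03 to 12.6 and 9.88 to 15.3 CPM. The paper, however, lists a transcript of Klk1b8 as decreased in the same libraries. With class = only, where fewer Klk1 genes could be tested, the median of the list was -0.96, against 0.05 in these sums. Whether transcripts of the other classes keep the sum of Klk1b8 level was not tested.

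The means of Klk1b21 and Klk1b24 differed between the ages of a side as well, which was not tested. They changed by -0.93 and -0.73 on the log2 scale from 3M to 6M, by -1.78 and -1.47 from 6M to 12M, and by -0.65 and -0.88 from 12M to 18M. Over the 141 genes that fell, the median change was 0.00 from 3M to 6M, -0.53 from 6M to 12M and -0.05 from 12M to 18M, and over the 55 that rose it was 0.03, 0.29 and 0.01. The step from 6M to 12M was the largest of the 3 in 190 of the 196 called genes and in 10563 of all 18010, a share that the contrast between the sides partly fixes. The means of the 4 ages were in strict order in 68 of the called genes (34.7%), against 14.2% of all genes tested. Selecting genes by a difference between the sides partly raises the former share.

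The stromal list was the other cell type list with several falls. Of 12 stromal markers, 5 were called lower and 0 higher, against 0.783% called lower among all genes. The median of the 12 was -0.43, and their summed level was 91.8 to 123 CPM in younger and 67.5 to 85.3 CPM in older testis. Col1a2, a chain of the fibrillar collagen I, lay at 12.0 to 21.4 CPM (median 14.6) against 6.84 to 9.61 CPM (median 8.88), with no overlap. Its log2 difference was -0.85 ± 0.14 (SE, edgeR, adjusted p = 0.0167), and it was called in all 12 fits. The other chain, Col1a1, changed by -0.78 (edgeR, adjusted p = 0.0302), and Col3a1, the collagen of loose connective tissue, by -0.78 (adjusted p = 0.0265). Mfap4, a protein of elastic microfibrils, changed by -0.78 (edgeR, adjusted p = 0.0245), and Pdgfra, the growth factor receptor that marks fibroblasts and Leydig precursors, by -0.66 (adjusted p = 0.0281).

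In all 3 collagens the highest younger value belonged to 3M replicate 2, and without this library the differences were -0.72 for Col1a2, -0.61 for Col1a1 and -0.63 for Col3a1, each still called by edgeR with adjusted p of 0.0148, 0.0216 and 0.0201. The stromal sum was highest there as well. Without 12M-3, 18M-2 or 18M-3, however, 1 of the 12 stromal markers was called, with adjusted p up to 0.0675 for Col3a1 in edgeR. Over all 53 tested collagens and laminins, 4 were called lower and 0 higher, against 0.783% called lower among all genes, and the median was -0.03. Lamb1, a laminin chain of basement membranes, was the fourth, with -0.53 ± 0.11 (SE, edgeR, adjusted p = 0.0434) and calls in 2 of the 12 fits. The number called in this list ran from 1, without 12M-3, 18M-2 or 18M-3, to 7.

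Enzymes that modify foreign compounds and lipids held further falls. Of 24 tested genes of drug and xenobiotic metabolism, 3 were called lower and 0 higher, against 0.783% called lower among all genes. The median was -0.14, and the summed level went from 429 to 488 CPM to 300 to 423 CPM. Ephx1, the microsomal epoxide hydrolase, lay at 56.0 to 65.8 CPM (median 62.0) in younger and at 20.9 to 38.8 CPM (median 33.9) in older testis, and the sides did not overlap. Its log2 difference was -0.92 ± 0.12 (SE, edgeR, adjusted p = 0.00753). Ces1d, a carboxylesterase that cleaves esters and triglycerides, fell from 17.3 to 20 CPM to 7.16 to 13.3 CPM, by -0.89 ± 0.14 (SE, edgeR, adjusted p = 0.0168). Both were called in all 12 fits.

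Aldh1a1, which makes retinoic acid and is the single called gene of the 23 in the retinoic acid list, went from 160 to 199 CPM to 96.3 to 150 CPM, by -0.50 ± 0.09 (SE, edgeR, adjusted p = 0.0297). It was lost without 6M-1, 6M-2, 6M-3, 12M-3 or 18M-2, with adjusted p up to 0.0714 in edgeR, and its difference was -0.29 with class = only, with an unadjusted p of 0.249. Of 44 antioxidant and glutathione enzymes, 2 were called lower, against 0.783% of all genes. They were Mgst1, a membrane-bound glutathione transferase, by -0.38 ± 0.07 (SE, edgeR, adjusted p = 0.0287), and Gpx8, a glutathione peroxidase of the endoplasmic reticulum, by -0.81 ± 0.16 (SE, adjusted p = 0.0302). The median of that list was -0.04, and 0 of its genes were called without 6M-2, 12M-1, 12M-3 or 18M-3.

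Several of the largest falls belong to no list. Aqp2, a water channel best known from the collecting duct of the kidney, went from 2.27 to 5.87 CPM (median 3.40) to 0.70 to 1.67 CPM (median 1.08), with no overlap and a log2 difference of -1.71 ± 0.26 (SE, edgeR, adjusted p = 0.0128). Bpifb5, a member of a family of lipid-binding secreted proteins, went from 5.67 to 7.09 CPM to 1.65 to 3.94 CPM, by -1.11 ± 0.18 (SE, edgeR, adjusted p = 0.0170). Both were called in all 12 fits. Wisp2, a secreted matricellular protein, changed by -1.06 ± 0.19 (SE, edgeR, adjusted p = 0.0244) and was lost without 12M-3 or 18M-3, and Nat8f5, of an acetyltransferase family, changed by -1.15 ± 0.22 (SE, adjusted p = 0.0302) and kept its call in 3 of 12 fits.

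The genes with the smallest p also held moderate falls with little spread. Spon1, a secreted matrix protein, lay at 16.2 to 19.3 CPM in younger and 10.5 to 13.1 CPM in older testis, with a log2 difference of -0.58 ± 0.07 (SE, edgeR, adjusted p = 0.00548). Bicc1, an RNA-binding protein, went from 7.27 to 8.41 CPM to 4.21 to 5.52 CPM, by -0.59 ± 0.07 (SE, edgeR, adjusted p = 0.00572). Glb1l2, a protein related to beta-galactosidase, went from 6.90 to 9.95 CPM to 3.14 to 5.62 CPM, by -0.97 ± 0.14 (SE, edgeR, adjusted p = 0.0111). For these 3 the sides did not overlap, and the means within a side were close: Spon1 had 17.6 and 17.7 CPM at 3M and 6M and 12.0 and 11.7 CPM at 12M and 18M. With class = only, the difference of Spon1 was -0.18, with an unadjusted p of 0.792 in edgeR.

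Fewer genes rose, and by less. Fetub, a secreted protease inhibitor mostly known from the liver, had the largest rise among called genes with no overlap and a mean of 1 CPM or more, from 0.42 to 3.55 CPM (median 1.52) to 4.39 to 8.45 CPM (median 5.96). Its means rose at each age, with 0.72, 2.82, 5.36 and 7.14 CPM from 3M to 18M. The log2 difference was 1.83 ± 0.40 (SE, edgeR, adjusted p = 0.0486), and its call was kept only without 6M-1 or 12M-2, with adjusted p up to 0.106 in the other fits. Hoxd10, a homeobox transcription factor that patterns the rear of the embryo, went from 0.60 to 1.64 CPM (median 1.12) to 2.46 to 4.01 CPM (median 3.19), by 1.52 ± 0.20 (SE, edgeR, adjusted p = 0.00861), and was called in all 12 fits. Its neighbour Hoxd9 went from 2.03 to 3.25 CPM to 3.43 to 4.70 CPM, by 0.70 ± 0.13 (SE, edgeR, adjusted p = 0.0302), and was lost without 3M-1, 3M-3, 6M-1, 6M-2, 12M-1, 18M-2 or 18M-3.

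The libraries do not record the strand, and the Hoxd genes lie close together with antisense transcripts, so that their reads cannot be assigned to a strand. Akr1c12, an aldo-keto reductase with near-identical relatives, went from 0.87 to 1.96 CPM to 2.11 to 3.42 CPM, by 1.005 ± 0.20 (SE, edgeR, adjusted p = 0.0347), with calls in 5 of 12 fits. Mrgpra2b, an orphan receptor of the Mas-related family, differed by 0.69 (edgeR, adjusted p = 0.0292) with calls in 4 of 12 fits, and Mbp, whose products include myelin basic protein, by 0.42 (adjusted p = 0.0170) with calls in 10 of 12. Nlrp5-ps, a pseudogene, had the smallest p of the rises: 8.17 to 8.74 CPM in younger and 10.4 to 12.7 CPM in older testis, a difference of 0.44 ± 0.05 (SE, edgeR, adjusted p = 0.00572) that was called in all 12 fits and was 0.70 with class = only.

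Of the 10 largest rises, 3 were clone-named genes: 1700071M16Rik (0.53, edgeR, adjusted p = 0.0333), 1700022A22Rik (0.48, adjusted p = 0.0117) and 4933408N05Rik (0.47, adjusted p = 0.0268). The sides did not overlap in any of them. 1700022A22Rik was called in all 12 fits, 4933408N05Rik in 8 of them and 1700071M16Rik in 2, with adjusted p up to 0.0862 in edgeR. With class = only, the difference of 1700071M16Rik was 1.02 and that of 1700022A22Rik 0.31, with an unadjusted p of 0.446 in edgeR for the latter. Such names made up 14 of the 55 genes that rose (25.5%), 2 of the 141 that fell (1.42%) and 11.9% of all genes tested. This count was made after the calls were seen.

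**Figure D4:**
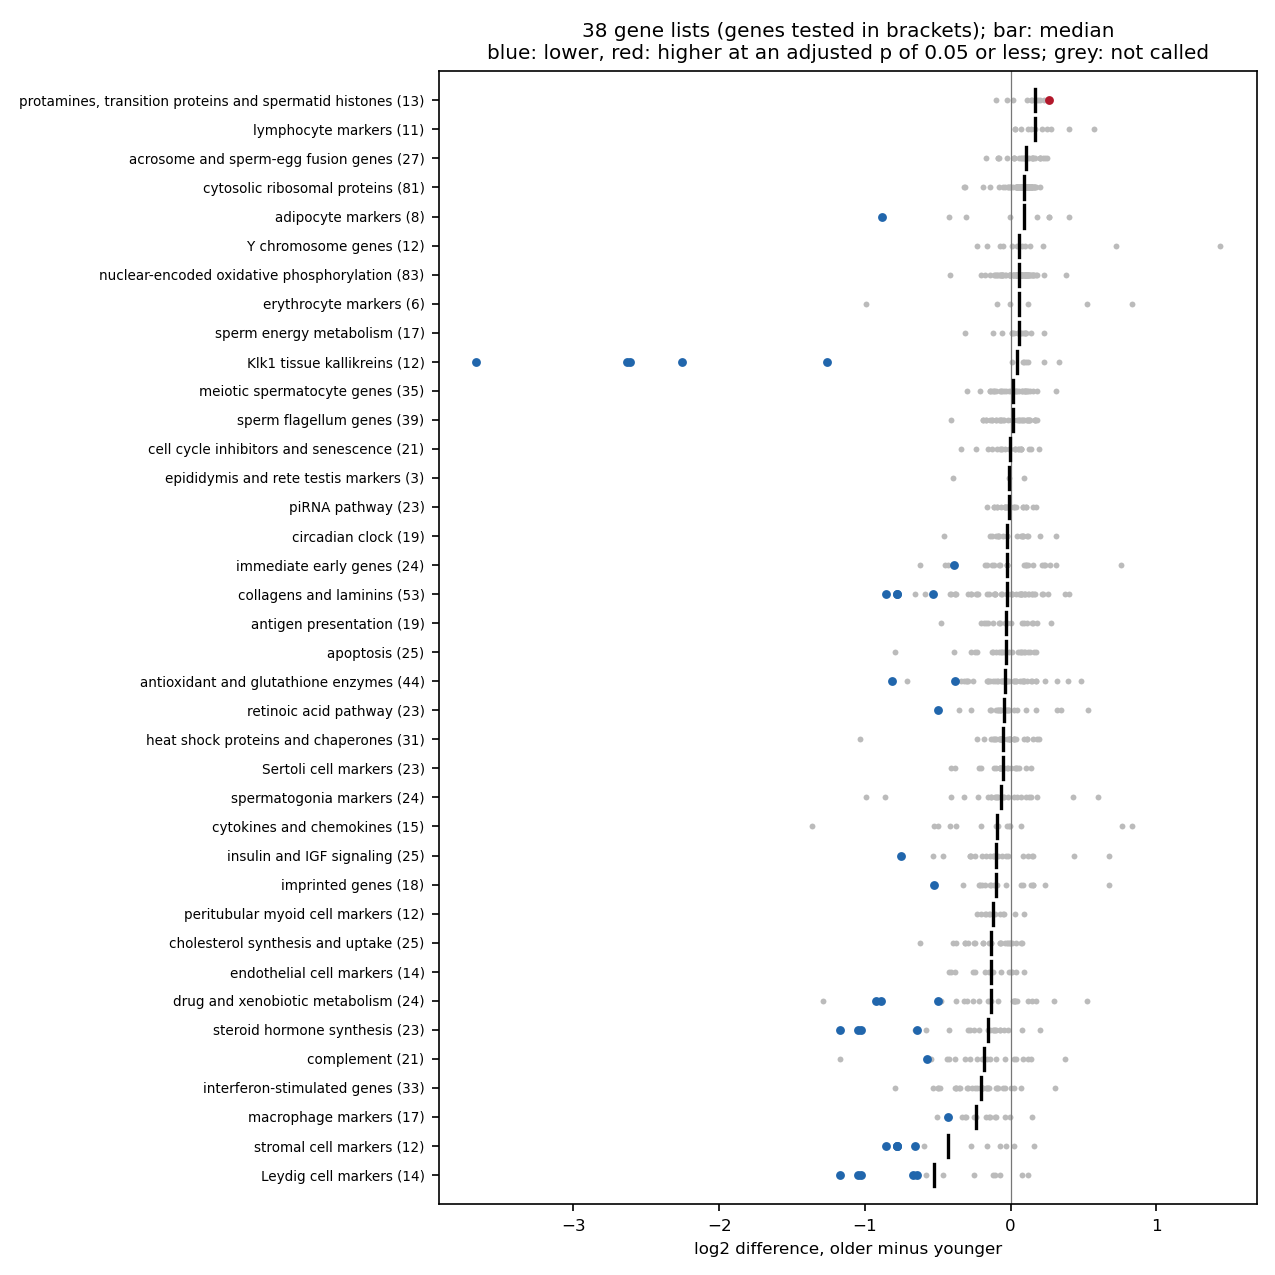
Each line is 1 of the 38 gene lists, with its members' log2 differences as points, the list median as a bar, and called members in colour. The Leydig and stromal lists have medians of -0.52 and -0.43, and the lists of germ cell genes have medians of -0.07 to 0.17.

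Markers of other somatic cell types held 1 call, against 1.09% called among all genes. Of 23 Sertoli cell markers, 12 peritubular myoid and 14 endothelial markers, 0 were called by edgeR's quasi-likelihood test with adjustment. At an unadjusted p of 0.05 or less in edgeR, 3, 1 and 3 were lower and 0, 1 and 0 higher. Over all 18010 genes tested, 1977 were lower and 1710 higher at such a p. The medians of these 3 lists were -0.05, -0.12 and -0.14, and their summed levels overlapped between the sides, with 453 to 490 CPM against 453 to 498 CPM for the myoid list. Shbg, the androgen-binding protein, had the lowest p of the Sertoli list with -0.41 ± 0.12 (SE, edgeR, adjusted p = 0.0889), Smtn, a smooth muscle protein, that of the myoid list with -0.23 (adjusted p = 0.135), and Pecam1, an adhesion molecule of the vessel wall, that of the endothelial list with -0.42 (adjusted p = 0.0865). Of 8 adipocyte markers, Plin1, which coats lipid droplets, was called, at 0.70 to 1.05 CPM against 0.32 to 0.62 CPM (-0.89, edgeR, adjusted p = 0.0379), while the median of the list was 0.09 and the call was kept in 3 of 12 fits.

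Immune cell markers showed 1 call, against 1.09% called among all genes. Among 17 macrophage markers, 16 of 17 lay below 0 with a median of -0.24, and Mpeg1, a pore-forming protein of macrophages, fell by -0.43 ± 0.09 (SE, edgeR, adjusted p = 0.0389). The summed level of this list was not lower, at 383 to 436 CPM in younger and 406 to 463 CPM in older testis, and the call was kept in 2 of 12 fits. Lymphocyte markers were scarce: 11 of 20 could be tested, 0 were called, and all 11 lay above 0 with a median of 0.17 and sums of 14.9 to 17.6 CPM against 16.1 to 20.9 CPM. The example with the lowest p, the T cell adhesion molecule Cd2, had 0.44 to 1.07 CPM in younger and 0.74 to 1.28 CPM in older testis (0.57, edgeR, adjusted p = 0.184). Of 6 erythrocyte markers 0 were called, and Hba-a2, an alpha globin and the example of the list, varied from 0.14 to 18.3 CPM over all libraries (edgeR, adjusted p = 0.606).

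The lists of inflammation held 1 call, which was a fall, against 0.783% called lower among all genes. Of 33 interferon-stimulated genes 0 were called and 29 lay below 0, with a median of -0.20. Of 15 cytokines and chemokines 0 were called, with a median of -0.09 and Cxcl12 as the example with the lowest p (-0.50, edgeR, adjusted p = 0.0878). Of 19 antigen presentation genes 0 were called, with a median of -0.03, and its example Tap2, a peptide transporter, had an adjusted p of 0.130 in edgeR. C2, an early component of complement, was the 1 called gene of 21 in its list, at 14.7 to 17.8 CPM against 8.73 to 12.8 CPM (-0.57 ± 0.10, SE, edgeR, adjusted p = 0.0207). It was lost without 6M-2 or 18M-3.

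Germ cell lists held 1 call, against 1.09% called among all genes. Of 24 spermatogonia markers and 35 meiotic genes 0 were called, with medians of -0.07 and 0.02, and at an unadjusted p of 0.05 or less 1 and 5 were higher and 5 and 3 lower. Cdh1, an adhesion molecule of undifferentiated spermatogonia, and Ythdc2, an RNA helicase needed for meiotic entry, were the examples with the lowest p (-0.86 and -0.21, edgeR, adjusted p = 0.0782 and 0.124). Of 39 flagellum genes 0 were called, 10 were higher and 7 lower at an unadjusted p of 0.05 or less, and the median was 0.01, with Tekt2, a tektin of the axoneme, at 308 to 369 CPM against 364 to 396 CPM (0.17 ± 0.04, SE, edgeR, adjusted p = 0.0600). Of 27 acrosome and sperm-egg fusion genes 0 were called, 22 lay above 0 and 3 were apart between the sides and higher. At an unadjusted p of 0.05 or less 14 were higher and 3 lower, and the median was 0.10. Of all 18010 genes tested, 8741 lay above 0, 1.08% were apart and higher, and 20.5% had such an unadjusted p in edgeR. Spaca4, a sperm membrane protein, lay at 75.8 to 90.4 CPM against 90.7 to 115 CPM (0.23 ± 0.06, SE, edgeR, adjusted p = 0.0685).

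Tssk6, a kinase of late spermatids needed for chromatin condensation, was the 1 called gene among these lists. It lay at 297 to 341 CPM in younger and 349 to 454 CPM in older testis, with no overlap and a log2 difference of 0.27 ± 0.06 (SE, edgeR, adjusted p = 0.0469), and it kept its call in 3 of 12 fits. Its list of 13 protamine, transition protein and spermatid histone genes had a median of 0.17 against -0.01 for all genes, with 11 of 13 above 0 and 6 higher and 0 lower at an unadjusted p of 0.05 or less. Over all 18010 genes tested, 1710 were higher and 1977 lower at such a p in edgeR. The protamines themselves did not pass the test: Prm2 had a difference of 0.20 ± 0.07 (SE, edgeR, adjusted p = 0.146). CPM are shares of a library, so a rise of germ cell transcripts and a fall of somatic transcripts are not separate measurements.

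The lists of cell maintenance held few calls. Of 81 ribosomal protein genes, 83 of oxidative phosphorylation, 17 of sperm energy metabolism, 23 of the piRNA pathway, 31 heat shock proteins and chaperones, 21 of cell cycle inhibition and senescence, 25 of apoptosis, 19 of the circadian clock and 12 of the Y chromosome, 0 were called. Ribosomal protein genes lay above 0 in 70 of 81 with a median of 0.09, and their example Rps4l had an adjusted p of 0.0976 in edgeR. The lowest adjusted p of the other 8 lists were those of Ndufs7 (0.138), Gapdhs (0.116), Mael (0.0844), Hspd1 (0.0670), Rb1 (0.0685), Casp12 (0.121), Nfil3 (0.133) and Ddx3y (0.118), with log2 differences between -0.80 and 0.31. The senescence list had a median of -0.003, which became 0.0005 with the size factors of DESeq2.

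Single calls in the remaining lists were falls, against 0.783% called lower and 0.305% called higher among all genes. Irs1, the adaptor that passes on the insulin signal, was the 1 called gene of 25 in its list, at 1.27 to 1.68 CPM against 0.56 to 1.23 CPM (-0.75 ± 0.16, SE, edgeR, adjusted p = 0.0469), and was kept in 1 of 12 fits. Fosl2, a subunit of the AP-1 transcription factor, was called among 24 immediate early genes (-0.39 ± 0.09, SE, edgeR, adjusted p = 0.0469) and kept in 2 of 12 fits. The summed level of that list went the other way, at 431 to 473 CPM in younger and 476 to 495 CPM in older testis, with no overlap. Meg3, a maternally expressed long noncoding RNA, was called among 18 imprinted genes, at 17.7 to 20.5 CPM against 10.6 to 17.4 CPM (-0.53 ± 0.10, SE, edgeR, adjusted p = 0.0292), and kept in 5 of 12 fits. In all, 28 of the 196 called genes belonged to any of the 38 lists.

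The 31 genes that were called whichever library was left out were 27 falls and 4 rises. The rises were Hoxd10, Nlrp5-ps, 1700022A22Rik and Svopl, a gene related to the synaptic vesicle transporters at 0.07 to 0.52 CPM in younger and 1.15 to 2.07 CPM in older testis (2.25 ± 0.33, SE, edgeR, adjusted p = 0.0117). The falls held the 4 kallikreins Klk1b21, Klk1b22, Klk1b24 and Klk1b27, the Leydig genes Cyp11a1, Cyp17a1 and Prlr, the short-chain dehydrogenase Hsd17b11, the fatty acid desaturase Fads2, Ephx1, Ces1d, Pon3, Col1a2 and Aqp2. Pon3, a paraoxonase, went from 3.35 to 4.23 CPM to 1.36 to 2.51 CPM, by -0.92 ± 0.13 (SE, edgeR, adjusted p = 0.0115). Svopl, Hsd17b11, Fads2 and Pon3 lay outside the naming rule and are given because they are among the 31.

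**Figure D5:**
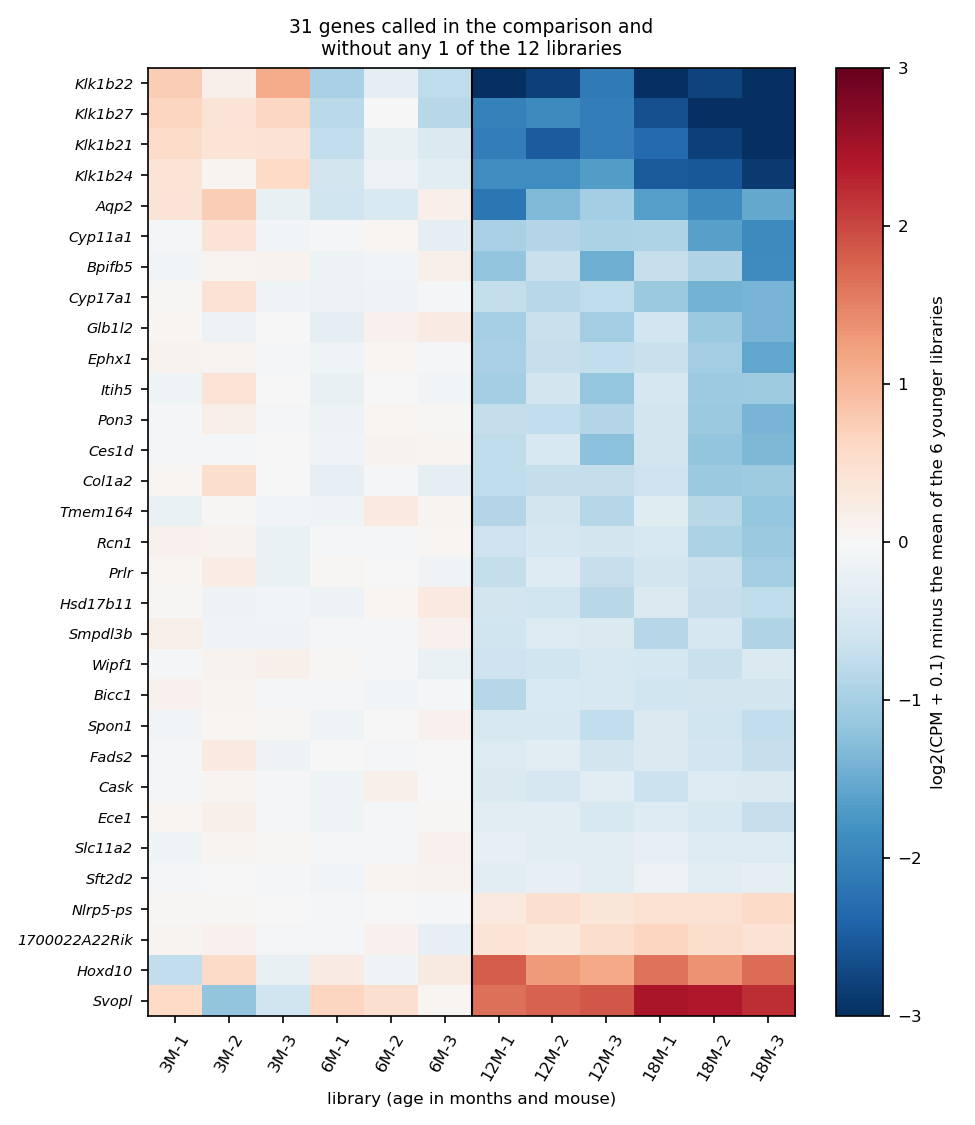
The 31 genes called in the full comparison and in all 12 fits without 1 library are the lines and the 12 libraries the columns of a colour map, which gives log2(CPM + 0.1) minus the mean of the 6 younger libraries, with colours limited at 3 in size; a vertical line separates the sides. All 6 older columns are blue for the 27 genes that fell and red for the 4 that rose, and the darkest lines are the kallikreins.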

How the data were processed

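Total testis RNA of 12 C57BL/6 mice (3 each at 3M, 6M, 12M and 18M; 1 library per mouse) had been depleted of ribosomal RNA and sequenced in pairs without strand information. The authors aligned reads with HISAT2 to mm10 and assembled and quantified transcripts with StringTie 1.3.3b. The deposited table gives estimated counts per transcript, which equal coverage times length over the read length of 101, rounded up, in all 71967 transcripts (tolerance 0.01 reads), and FPKM, which the authors scaled by length and library size only. The coverage signal in the deposited assemblies of each library was used for that check alone. No per-sample column was left without a sample.

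Counts of the 60321 transcripts of class =, c, j and o were summed over 24336 genes; 220 gene identifiers carried several symbols and got the symbol of the RefSeq table where it had one. The 6 younger and 6 older libraries were compared with edgeR 4.0.16 in R 4.3.3 (TMM normalization, filterByExpr by side, 18010 genes kept, quasi-likelihood F-test, Benjamini-Hochberg adjustment over these genes, calls at 0.05). The SE is the size of the log2 difference over the root of F. Age, not litter or batch, was the only factor in the labels.

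Named were the 10 largest rises and falls among called genes with a mean of 1 CPM or more and no overlap between sides, the 10 smallest p, and up to 4 called members, or else the member with the lowest p, of each of 38 lists; defining markers were named where a list was described. The values of 2 genes under this rule are not reported here. The members and lists were chosen with earlier results of these data known. Alternatives were other normalizations, filters, class codes, thresholds and tests (DESeq2 1.42.0; limma 3.58.1 on log2 of summed FPKM + 1), robust dispersions, means of the 4 ages, a replicate block, and libraries or ages left out. Python 3.11.15, numpy 2.4.6, pandas 2.3.3 and matplotlib 3.10.9 were used for the rest.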

Additional observations from a re-analysis of the deposited data

Results flagged for a closer look

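In 7 of 134 sets of 6 libraries of a side, 1 library lay far from the other 5, which chance gives in about 1 of 20 such sets. Of these, 5 were 3M replicate 2: it had 197 CPM of Cyp17a1 against 128 to 148 CPM in the other younger libraries, 21.4 CPM of Col1a2 against 12.0 to 15.4 CPM, 12.0 CPM of Col1a1 against 5.82 to 7.71 CPM, 13.5 CPM of Col3a1 against 8.09 to 8.77 CPM, and 75.8 CPM of Spaca4 against 85.3 to 90.4 CPM. Cyp17a1 and these 3 collagen genes were thus highest, and Spaca4 lowest, among the younger libraries in the same mouse. The sum of all Leydig markers was highest in 6M replicate 3, at 1627 CPM against 1309 CPM in 3M replicate 2. Without 3M replicate 2 the log2 differences were -0.92 for Cyp17a1, -0.72 for Col1a2, -0.61 for Col1a1 and -0.63 for Col3a1, all called by edgeR. 6M replicate 3 had 2.75 CPM of Tap2 against 1.52 to 1.93 CPM. 3M replicate 3 had 3.38 CPM of Nfil3 against 4.42 to 4.83 CPM.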

How the results depend on the processing

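The called genes that could be tested kept their direction under every alternative other than class = only, where 180 of 189 did. The alternatives reuse libraries in which these genes were selected, so a kept direction is largely given in advance. The number of calls varied. It was 204 with the size factors of DESeq2, 175 (32 rises) with library sizes, 133 (35 rises) without the filter, 223 at 1 CPM or more in 6 libraries, 140 (31 rises) with limma on FPKM, 287 (89 rises) with robust dispersions, 991 (436 rises, 555 falls) with DESeq2, 105 (26 and 79) over the means of the 4 ages, 111 (29 and 82) with all class codes, 0 (0 and 0) with class = only, 23 (6 and 17) at a log2 difference of 1 or more, and 3687 (1710 and 1977) at an unadjusted p of 0.05 or less. Leaving out a library gave 36 to 472 calls, with 4 to 179 rises and 32 to 293 falls, and leaving out an age gave 3 (1 and 2) without 3M, 10 (2 and 8) without 6M, 15 (4 and 11) without 12M and 8 (1 and 7) without 18M. A side without one of its ages keeps 3 mice, so these last fits have less power by construction. Genes without overlap, 438 with all libraries, were 504 to 824 without 1 library and 1394, 1297, 1725 and 1190 without 3M, 6M, 12M and 18M, where fewer libraries make overlap less likely.

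With the replicate block, 133 genes (37 rises, 96 falls) were called, 117 of them among the 196. Whether the replicate numbers pair the mice was not settled. Deviations from the age means correlated at -0.070 to 0.142 between libraries with the same number and -0.164 to 0.096 between others. The correlation was above 0.1 in 3 of 18 pairs with the same number and in 0 of 36 others. In all, 4 of 12 libraries correlated best with one of their own number.

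Of the named genes, Shbg changed sign, to 0.0012 with limma on FPKM and 0.56 with class = only, as did the median of the heat shock list, to 0.0017 with class = only, against -0.05. The Klk1 median was -0.96 there with 10 of its genes tested. The causes were not tested. With class = only, the log2 difference of 6 of the 42 named called genes that had a value moved by over 0.1: Spon1 to -0.18, Aldh1a1 to -0.29, Klk1b21 to -2.35, Nlrp5-ps to 0.70, 1700022A22Rik to 0.31 and 1700071M16Rik to 1.02. Cyp17a1 (-1.01), Cyp11a1 (-1.07), Klk1b24 (-2.24) and Hoxd10 (1.53) had adjusted p of 0.0539, 0.0999, 0.0539 and 0.0539 there in edgeR. At about 1 CPM, as for Klk1b22, Svopl and Hoxd10, precision is limited by reads. The median of all genes moved by 0.003 and -0.012 with the other normalizations.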

Other observations

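The families below were chosen after the calls were seen, so their counts are descriptions. Among all 18010 genes tested, 0.783% were called lower and 9269 lay below 0. Of 15 desaturases and elongases tested, 3 were called lower and 0 higher, 12 lay below 0 and the median was -0.17. Fads2, the delta-6 desaturase that starts the synthesis of long polyunsaturated fatty acids, lay at 85.3 to 116 CPM (median 91.7) in younger and at 58.3 to 74.5 CPM (median 66.5) in older testis, with no overlap (-0.50 ± 0.08, SE, edgeR, adjusted p = 0.0133). Fads1, the delta-5 desaturase, changed by -0.52 (edgeR, adjusted p = 0.0317), and Scd1, which makes monounsaturated fatty acids, by -0.82 (adjusted p = 0.0292). Of 32 tested genes of fatty acid beta-oxidation, 29 lay below 0 with a median of -0.15, and 4 were called lower: Decr1 (-0.41), Decr2 (-0.80), Eci2 (-0.38) and Acaa2 (-0.35). Among 9 tested genes named Hsd17b, Hsd17b11 (-0.66 ± 0.10, SE, edgeR, adjusted p = 0.0116) was called lower beside Hsd17b3.

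Of 23 tested Hox genes, 2 were called higher and 0 lower, 16 lay above 0, and the median was 0.20. Among all 18010 genes tested, 0.305% were called higher and 8741 lay above 0. Both Hox calls were in the Hoxd cluster. Hoxd11, next to Hoxd10, had 0 to 0.42 CPM in younger and 0.46 to 1.29 CPM in older testis, with no overlap and a difference of 1.78 ± 0.47 that did not pass the test (SE, edgeR, adjusted p = 0.0760). Of 5 tested Akr1c genes, Akr1c12 was called higher and Akr1cl lower, the latter at 80.9 to 105 CPM against 51.5 to 78.7 CPM (-0.47, edgeR, adjusted p = 0.0297).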
